A study of Mus musculus with 8 samples.

Results

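The genes described here were higher in nephron progenitor cells without the histone deacetylases Hdac1 and Hdac2 than in wildtype progenitors. They were chosen by their measured ratios. For each gene the brightest probe was taken, and the gene was a member where the mean log10 ratio of 4 mutant arrays lay at least 0.2 above that of 4 wildtype arrays, the lowest mutant array lay above the highest wildtype array, and the Cy5 signal was well above background on all 4 mutant arrays. The rule found 160 of 20887 genes with a RefSeq symbol (0.766%), or 1.14% of the 14096 genes that were well above background on all 4 mutant arrays. The mirror rule, with signs turned, found 218 lower genes (1.04% of 20887). Since the same ratios chose the members, the differences below are descriptions and carry no test.

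Cells were sorted by flow cytometry from C57BL/6 mouse kidneys at embryonic day 15.5. All embryos carried Six2CreEGFP, a transgene in which the promoter of Six2, the transcription factor of the self-renewing cap mesenchyme, drives Cre recombinase and a green fluorescent protein. The mutant pools were also homozygous for floxed HDAC1 and HDAC2 (HDAC1&2f/f), which Cre recombines in the sorted lineage, and the wildtype pools had unfloxed alleles (HDAC1&2+/+). Each group had 4 pools, and each pool was hybridised in Cy5 to its own two-colour array against wildtype pool 1 in Cy3. On the array of wildtype pool 1 both dyes therefore held the same RNA. The sources used here do not give the number of embryos in a pool.

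Hdac1 and Hdac2 are closely related enzymes that remove acetyl groups from histone tails. They have no sequence specificity of their own and act as the catalytic core of corepressor complexes such as NuRD, Sin3 and CoREST, the last of which is recruited by REST to neuronal genes in non-neuronal cells. In the fetal kidney the cap mesenchyme either renews itself or is induced to form the renal vesicle and then the tubular segments. Genes best known from neurons, muscle or germ cells are not used as markers of either state. Many were nonetheless measured in wildtype progenitors, with 26 of the 27 synaptic and axonal members well above background on all 8 arrays.

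Ratios are given on the log2 scale as Cy5 over Cy3, so that 0 stands for the level of wildtype pool 1. Single probes, dim ones above all, were off 0 on that pool's own array. Pools 3 and 4 of each group differed in Cy5 by no more than Cy3 signals of the one reference RNA differed between arrays. Their mean was counted as 1 sample, and means ± SD are over 3 samples per group, while single values are given for all 8 arrays. The labels call the pools biological replicates but do not say which animals each came from, so the spread between samples may be technical in part. The wildtype 2 array stood apart in both dyes, with 48603 of 55681 probes well above background in Cy5 against 28142 to 33968 on the other arrays. Mutant 1 stood apart in Cy5 levels. It differed from each other array by a median absolute deviation of 0.298 to 0.399, and pairs without it by up to 0.189. On the slide, each row of arrays held a single genotype, and an effect of the row cannot be told apart from one of the genotype. The 3 probes of Hdac1 were lower in the mutant by 0.27, 0.53 and 0.39 on the log2 scale, and lower in each of the 3 same-numbered pairs of samples. The Hdac2 probe differed by -0.17 and the brightest Six2 probe by -0.12, and in both cases the groups overlapped. Whether these probes lie in the floxed exons was not analysed here. On 5 of the 8 arrays at least 1 spot of the Hdac2 probe was flagged as an outlier. Of the defining markers of the labelled cell type, Six2 lay at percentile 94.2 and Cited1 at percentile 96.3 of wildtype Cy5 signal among detected genes. In the mutant Cited1 was 6.55-fold lower, with ratios of -2.95 to -2.75 against -0.29 to 0.08 in wildtype.

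The members differed between the groups by 1.46-fold to 9.43-fold, with a median of 1.90-fold. A ratio difference of at least 2-fold was found for 61 of them, 45 of which were well above background on all 4 wildtype arrays. Of the 11 at 4-fold or more, only 4 were (Sln, Lypd1, Ptpn5 and Chrna6), and the fold of the other 7 rests on wildtype signals near background. The lower genes of the mirror rule had a median of 2.18-fold, with 126 at 2-fold or more and 37 at 4-fold or more. That rule asked for signal on the wildtype arrays only, so some of these folds rest on mutant signals near background. By role, as assigned after the members were known, 27 members belong to synapse, axon or neuronal adhesion, 19 are channels, receptors or transporters, 15 are transcription factors or their regulators and 14 are secreted peptides, growth factors, their receptors or inhibitors. Smaller groups were cilium and axoneme (12), major histocompatibility and immune signalling (10), calcium handling (7), germ line and testis (6), muscle (4), extracellular matrix (3) and retinoic acid (2). The other 41 members have other roles or none assigned.

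**Figure D1:**
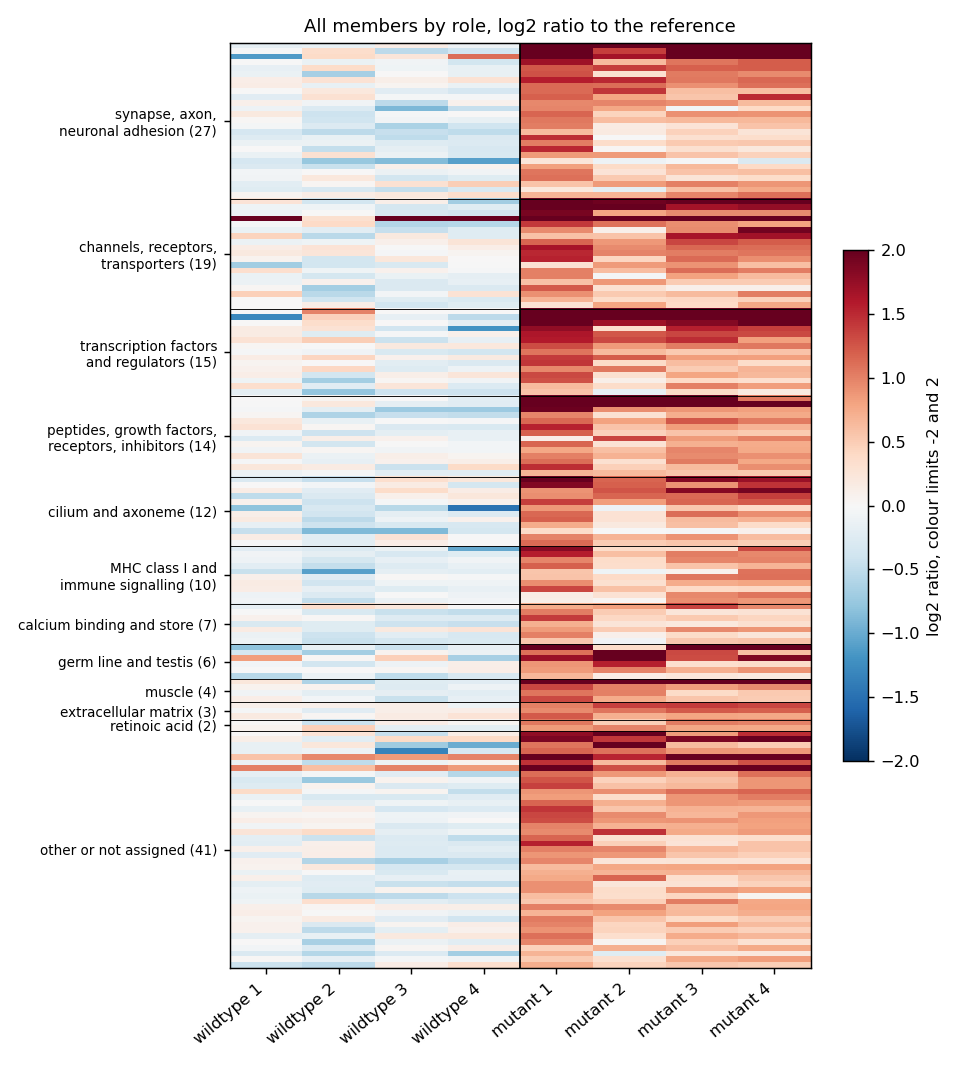
Log2 ratio of Cy5 over the Cy3 reference for all 160 members (rows, grouped by role with the number of genes) on the 8 arrays (columns), with colours limited at -2 and 2. The mutant columns are red because the rule asked for it. Mutant 1 is the darkest column for most genes and mutant 2 the palest, and one row (Olfr1467) is dark on wildtype arrays as well.

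Sln had the largest difference of means. It encodes sarcolipin, a small inhibitor of the calcium pump of the sarcoplasmic reticulum in muscle. Ratios on wildtype arrays 1 to 4 were 0.22, -0.62, -0.24 and -0.23, and on mutant arrays 1 to 4 they were 3.39, 2.86, 2.82 and 2.83. The groups were far apart, at -0.21 ± 0.42 and 3.03 ± 0.32 (SD, n = 3), a 9.43-fold difference. Its Cy5 signal alone was 5.53 to 5.75 on wildtype and 8.79 to 9.61 on mutant arrays, on the log2 scale of processed intensity, while Cy3 stayed between 5.53 and 6.24 on all 8.

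Ptpn5 encodes a tyrosine phosphatase enriched in the striatum that acts at glutamatergic synapses. Its ratios were -0.18, -0.15, 0.15 and -0.11 on wildtype arrays and 2.74, 2.03, 2.13 and 2.01 on mutant arrays. Only mutant 1 stood above the other mutant arrays, and the difference of means was 2.39, or 5.23-fold. Chrna6, the alpha6 subunit of neuronal nicotinic acetylcholine receptors, had ratios of -0.08, -0.08, -0.35 and -0.24 against 2.12, 2.15, 1.66 and 1.77. The lowest mutant value lay 1.74 above the highest wildtype value, and the means differed 4.42-fold. Elmod1, a GTPase-activating protein for Arf family proteins, had 0.11, -0.21, 0.38 and 0.40 on wildtype arrays against 1.88, 1.41, 1.88 and 2.01, a 3.14-fold difference. For these 4 genes the signal was well above background on all 8 arrays.

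**Figure D2:**
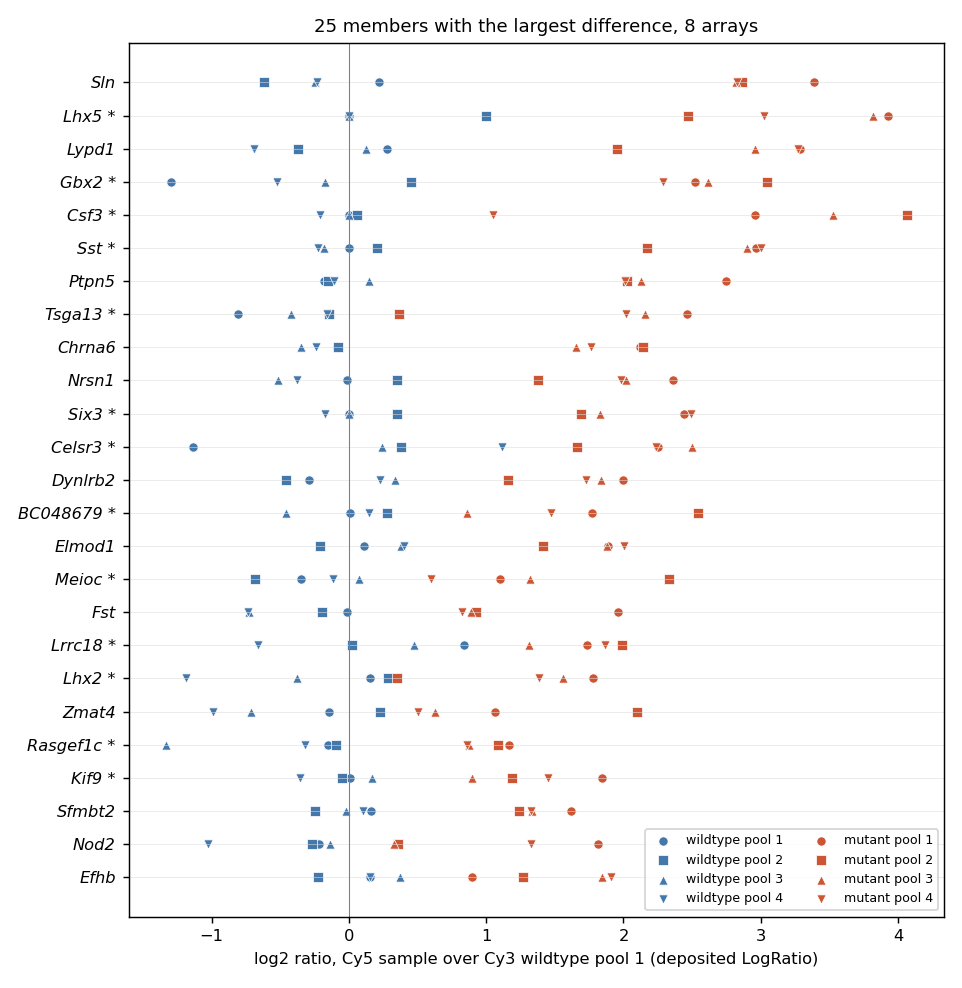
Log2 ratio on each of the 8 arrays for the 25 members with the largest difference under the rule, with colour for the group, marker shape for the pool number and an asterisk where the Cy5 signal was well above background on fewer than 4 wildtype arrays. Sln, Ptpn5 and Chrna6 show tight groups that lie far apart, while Celsr3, Lhx2, Csf3 and Tsga13 show a wide spread within a group.

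Sequences upstream of 4 members are shown because these genes had, after Sln, the largest differences in a second processing of the spot signals and are listed in the RefSeq promoter table (assembly GRCm38.p6). Six3, whose reference signal was not level, was left out of this choice. Each is the 250 bases before the start of the gene, 5′ to 3′ on the gene's own strand, which is the minus strand in all 4 cases. The windows are chr7:47133685-47133934 for Ptpn5, chr1:125912929-125913178 for Lypd1, chr13:25269997-25270246 for Nrsn1 and chr16:23890845-23891094 for Sst. Capitals mark matches on either strand to TGACGTCA (the cAMP response element), GGGCGG (the GC box), CCAAT and TATAAA.
Ptpn5: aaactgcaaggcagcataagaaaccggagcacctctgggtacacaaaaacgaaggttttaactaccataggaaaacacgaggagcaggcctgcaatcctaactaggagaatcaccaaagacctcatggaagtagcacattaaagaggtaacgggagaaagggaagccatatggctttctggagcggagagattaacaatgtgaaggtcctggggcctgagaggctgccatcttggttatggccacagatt
Lypd1: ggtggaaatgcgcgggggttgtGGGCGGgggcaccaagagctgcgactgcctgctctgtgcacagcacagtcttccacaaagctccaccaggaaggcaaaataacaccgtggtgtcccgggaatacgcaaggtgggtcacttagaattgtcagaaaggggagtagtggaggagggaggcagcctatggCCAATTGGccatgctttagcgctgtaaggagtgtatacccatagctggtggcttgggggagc
Nrsn1: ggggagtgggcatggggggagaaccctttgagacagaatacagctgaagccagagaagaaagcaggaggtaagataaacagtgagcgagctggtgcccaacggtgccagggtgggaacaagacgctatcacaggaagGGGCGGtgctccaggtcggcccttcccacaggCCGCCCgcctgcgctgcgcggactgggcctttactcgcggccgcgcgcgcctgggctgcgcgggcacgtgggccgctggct
Sst: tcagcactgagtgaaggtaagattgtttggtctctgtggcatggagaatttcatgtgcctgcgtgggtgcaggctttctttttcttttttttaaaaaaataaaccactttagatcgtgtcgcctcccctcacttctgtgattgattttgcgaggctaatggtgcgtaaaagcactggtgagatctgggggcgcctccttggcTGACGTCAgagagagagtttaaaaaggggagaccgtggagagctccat
The Sst window holds the cAMP response element for which this promoter is a textbook case, starting 48 bases before the start. TGACGTCA is found in 1.60% of the 27025 promoter windows of this length in the table. Lypd1 and Nrsn1 hold a GC box, present in 33.0% of windows, and Lypd1 has CCAAT, present in 34.5%, on both strands as one overlapping palindrome. No TATAAA, present in 13.0%, lies in the 4 windows, and Ptpn5 holds none of the 4 motifs. Only 118 of 160 members (73.8%) have an entry in the table, so the members as a set were not compared with other promoters.

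Neuronal adhesion and synaptic genes are described first, as the most frequent role assigned after the members were known, with no count of such genes over the whole array. Of the 27, 26 were well above background on all 8 arrays, beside 139 of all 160 members. Nrsn1, a neuronal vesicle membrane protein, had wildtype ratios of -0.02, 0.35, -0.52 and -0.38 and mutant ratios of 2.36, 1.38, 2.02 and 1.98, a 3.87-fold difference. Celsr3, a cadherin of the planar polarity pathway that guides axon tracts, differed 4.35-fold. Its wildtype values ran from -1.14 to 1.11 and its mutant values from 1.66 to 2.50, so the wildtype arrays disagreed with one another by more than the gap between the groups. Mapk8ip2, a scaffold of the JNK pathway in neurons, averaged 1.16 ± 0.53 in mutant cells against -0.12 ± 0.11 in wildtype (SD, n = 3). Stmn2, which destabilises microtubules in growing axons, was even across the mutant arrays at 1.14, 1.12, 0.91 and 1.09, against -0.16 to 0.15 in wildtype.

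The same group holds both sides of the synaptic cleft. The presynaptic adhesion protein Nrxn3 differed 1.95-fold and its postsynaptic partner Nlgn3 1.80-fold. Nlgn3 rested most on one array, with 1.51 on mutant 1 and 0.04, 0.32 and 0.21 on the other mutant arrays against -0.47 to 0.01 in wildtype. Scaffold and signalling proteins of the postsynaptic side were Dlgap1 (1.99-fold), Itpka (1.89-fold) and the dopamine-regulated phosphatase inhibitor Ppp1r1b (2.22-fold). Leucine-rich repeat adhesion proteins were Flrt1 (2.27-fold), Lrrc4b (1.62-fold), Lrrc4c (1.65-fold), Slitrk5 (1.68-fold) and Slitrk1 (1.46-fold, the smallest of all members). Flrt1 had mutant ratios of 1.57, 1.51, 1.06 and 1.15 against 0.12 to 0.29 in wildtype. The vesicle priming factor Unc13c had ratios of -1.09 to -0.33 in wildtype and -0.28 to 0.24 in mutant cells. It read -0.33 on the wildtype 1 array, which held the same RNA in both dyes. Its ratios are therefore not read as levels above or below the reference.

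Among channels, receptors and transporters, Lypd1, a membrane-anchored relative of snake toxins that binds nicotinic receptors, had the largest difference. It had 0.28, -0.37, 0.12 and -0.69 in wildtype and 3.29, 1.95, 2.96 and 3.27 in mutant cells, a 7.52-fold difference. The receptor subunit Chrna6 and its modulator Lypd1 were thus both members, as was Colq, the collagen tail that anchors acetylcholinesterase (2.58-fold). Genes of inhibitory transmission included the vesicular GABA transporter Slc32a1 (2.04-fold) and the metabotropic receptor subunit Gabbr2 (1.75-fold). Slc32a1 was highest on mutant 1, with mutant ratios of 1.51, 0.99, 1.02 and 1.06 against -0.03 to 0.24. Gabbr2 was well above background on only 2 wildtype arrays. The vesicular zinc transporter Slc30a3 differed by pool, with 0.59 and 0.57 on mutant arrays 1 and 2 and 1.65 and 1.68 on arrays 3 and 4. The odorant receptor Olfr1467 had ratios of 2.04, 0.32, 2.57 and 2.28 already on wildtype arrays, including the one that held the same RNA in both dyes. Its Cy5 signal was 0.53 lower on mutant arrays, and its Cy3 reference signal was 1.99 lower.

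The 4 transcription factors with the largest ratio differences under the rule, Lhx5, Gbx2, Six3 and Lhx2, were not well above background on all wildtype arrays. Lhx5, a LIM homeodomain factor of the forebrain, was not well above background on any wildtype array and was on all 4 mutant arrays. Its Cy5 signal was 1.09, 2.05, 1.03 and 1.00 on wildtype and 5.14, 3.34, 4.81 and 4.15 on mutant arrays, and Cy3 stayed between 0.87 and 1.21. The wildtype level is therefore only a bound, and no size is given for the difference. Gbx2, which positions the midbrain-hindbrain boundary, had ratios of -1.29, 0.45, -0.17 and -0.53 against 2.52, 3.05, 2.62 and 2.29. In Cy5 alone Gbx2 read 7.53 on wildtype 2 and 1.13 to 3.27 on the other wildtype arrays, against 5.29 to 5.55 in mutant cells, so that its groups separate in the ratio but not in the sample signal. Only the wildtype 2 array was well above background for it.

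Six3, a forebrain and eye field homeodomain factor, had ratios of -0.17 to 0.35 in wildtype and 1.69 to 2.49 in mutant cells. Its reference channel was not level. Cy3, which held one RNA throughout, read 1.15, 7.75, 1.14 and 3.55 on wildtype arrays and 7.41, 8.12, 7.68 and 6.71 on mutant arrays. Of 28883 probes well above background in Cy3 on all mutant arrays, the Six3 probe had the largest Cy3 difference (rank 1), and the part of this in its ratio was not tested. Lhx2, a LIM homeodomain factor of forebrain and limb, had 0.35 on mutant 2, close to the highest wildtype value of 0.29, and 1.38 to 1.78 on the other mutant arrays. It was well above background on only 2 wildtype arrays.

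The regulators that follow were well above background on all 8 arrays. Sfmbt2, a Polycomb group protein of the trophoblast, had 0.16, -0.25, -0.02 and 0.10 against 1.62, 1.24, 1.33 and 1.33, a 2.66-fold difference. Sp5, a target and feedback repressor of Wnt signalling, differed 1.98-fold, with mutant ratios of 0.85 to 1.30 and wildtype ratios of -0.01 to 0.21. The POU factor Pou3f1 of neural and Schwann cells differed 1.85-fold. From the Hox clusters only Hoxc4 (1.88-fold) and Hoxd12 (1.69-fold) of 34 measured genes were members, and the median difference over those 34 genes was 0.07. Mdfi, which binds and inhibits myogenic bHLH factors, differed 1.78-fold.

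Secreted peptides and signalling genes came next. Sst, the neuropeptide somatostatin whose promoter is printed above, read 3.48 to 4.79 in Cy5 on wildtype arrays and 7.33, 5.96, 7.25 and 7.21 on mutant arrays. The ratios gave a 6.47-fold difference, and 2 wildtype arrays were well above background. Galanin (Gal), another neuropeptide, differed 1.72-fold with mutant values of 0.77, 0.60, 0.97 and 0.76 against -0.07 to 0.03. Pam, the enzyme that amidates peptide hormones at their end, differed 2.04-fold. The cytokine Csf3 had the widest mutant spread of this group, with 2.96, 4.07, 3.53 and 1.05 against -0.21 to 0.06, and only wildtype arrays 2 and 4 were well above background. Its Cy5 signal of 4.24 to 5.40 on mutant arrays lay below the 6.19 of the wildtype 2 array.

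Extracellular inhibitors of growth factors, ligands and receptors were also among the members. Fst, follistatin, which sequesters activin, had -0.02, -0.20, -0.73 and -0.73 against 1.96, 0.92, 0.89 and 0.82, a 2.95-fold difference that was greatest on mutant 1. Grem1, a BMP antagonist needed for ureteric bud outgrowth, had -0.14 to 0.22 against 1.15, 0.80, 1.24 and 1.04. The secreted Wnt antagonist Frzb differed 1.75-fold, and so did the ligand Bmp8a. The Wnt receptor Fzd10 and the Wnt modulator Tpbg both differed 1.93-fold. Vegfc, the lymphatic growth factor, was even across pools, at 0.68, 0.63, 0.56 and 0.54 against -0.21 to -0.04.

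2 kidney genes were in this group. Ret, the receptor of ureteric bud tips for the mesenchymal ligand GDNF, had 0.05, -0.36, -0.01 and -0.06 against 1.16, 0.29, 0.72 and 0.74. Fgf20, a ligand made by nephron progenitors themselves, had -0.27 to 0.12 against 0.13, 1.34, 0.85 and 1.00, so that mutant 1 was at the wildtype level and the other mutant arrays were not. Of the retinoic acid pathway 2 genes were members. The synthesising enzyme Aldh1a3 had 1.06, 0.50, 1.03 and 0.99 against -0.43 to 0.14, and the binding protein Crabp2 had 0.85, 0.99, 0.77 and 0.76 against -0.20 to 0.47.

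Cilium and axoneme genes included parts that motile cilia need. Dynlrb2, a dynein light chain, had the largest difference of them, with -0.29, -0.46, 0.33 and 0.23 against 2.00, 1.16, 1.83 and 1.73 (3.48-fold). The outer dynein arm genes Dnah8 (1.98-fold) and Dnaic2 (1.72-fold), the dynein assembly factor Dnaaf3 (1.70-fold) and the radial spoke gene Rsph1 (1.78-fold) differed less. Kif9, a kinesin of the axoneme, differed 2.73-fold as a ratio, of which the Cy5 signal made up 0.35 and a lower Cy3 reference 1.10 on the log2 scale.

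Germ line genes were dim. Meioc, which prolongs meiotic prophase, had -0.35, -0.68, 0.07 and -0.12 against 1.10, 2.33, 1.32 and 0.60 and was well above background on 1 wildtype array. Stag3, the meiosis-specific cohesin subunit, was measured on all 8, and was even, at 0.86, 0.99, 0.71 and 0.90 against -0.00 to 0.13. Tsga13, a testis gene, had 0.37 on mutant 2 and 2.02 to 2.46 on the other mutant arrays. Besides Sln, the muscle group held Myh7, the slow and fetal cardiac myosin heavy chain (1.92-fold), Col22a1, a collagen of muscle-tendon junctions (2.13-fold), and Megf10, a receptor of satellite cells (2.00-fold). Myh7 was 1.32, 0.75, 0.56 and 0.50 in mutant and -0.44 to 0.14 in wildtype cells.

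Of the class I major histocompatibility members, H2-T23, H2-Q8 and H2-K2 were highest on mutant arrays 3 and 4. H2-K1 was about as high on mutant 1 as on those arrays. H2-M3 went the other way, with 1.33 and 0.58 on mutant arrays 1 and 2 and 0.39 and 0.42 on arrays 3 and 4. H2-K1, which presents peptides to cytotoxic T cells, had -0.10, -0.35, -0.16 and -0.08 against 0.98, 0.37, 0.98 and 1.00. H2-T23 was 0.15 and 0.29 on mutant arrays 1 and 2 and 0.96 and 1.07 on arrays 3 and 4, and H2-Q8 was 0.12 and 0.05 against 0.92 and 0.87. H2-K2 was likewise highest on arrays 3 and 4, at 1.07 and 1.10. Class I genes are related in sequence and some of their probes may read one another, so they may not be separate observations. None of 25 measured genes on the interferon response list was a member, with a median difference of 0.33 over that list. The class I members above were not on it. Eif2s3y, a translation factor gene of the Y chromosome, was a member with 0.75, 1.16, 0.34 and 0.54 against -0.26 to 0.10. The Y-linked Ddx3y differed by 0.53, Kdm5d by 0.31 and Uty by -0.49, the X-linked Xist differed by -0.23, the groups overlapped for all 4, and the part of the pools' sex in these values was not tested.

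Members lay next to each other in the genome in 6 pairs, which held 11 genes, by the gene order of RefSeq. The mirror rule gave 7 pairs with 14 genes among its 211 placed genes, against 156 placed members. Sln and Elmod1 are neighbours on chromosome 9, and Itih2, Itih5 and Sfmbt2 lie in a row on chromosome 2. The 2 Itih genes encode heavy chains that bind hyaluronan in the extracellular matrix, with mutant ratios of 1.01, 1.37, 1.41 and 1.34 for Itih2 and 0.95, 1.06, 1.23 and 1.19 for Itih5. The other pairs were Prkg2 with Rasgef1b, Tfeb with Mdfi, and Wdfy4 with Lrrc18. Over the 224 measured neighbours of members that are not members themselves, the median difference was 0.06, and 139 were higher in the mutant. Over all 14544 measured genes the median was 0.03, and 8110 (55.8%) were higher. Members lay on 20 of 21 chromosomes. Beside 1.14% over all detected genes, the share ran from 0 of 654 on chromosome 10 to 10 of 481 (2.08%) on chromosome 14, leaving aside the Y chromosome with 2 detected genes.

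Most members were weakly expressed in wildtype progenitors and yet measurable there. Their median wildtype signal lay at percentile 14.4 of the detected genes, and 106 of 160 fell in the lowest 25%, as did 145 of the 218 mirror genes. On all 4 wildtype arrays 139 members were well above background, 5 were so on 3 arrays, 15 on 1 or 2 and 1 (Lhx5) on none. The term derepressed, where it means silent in wildtype cells, thus does not describe most members, and they are called here by their rule. Members were nonetheless less often measured in wildtype cells than detected genes in general. Of the 14096 genes well above background on all 4 mutant arrays, 13958 were so on all 4 wildtype arrays as well. Crabp2 was the brightest member in wildtype cells. In sorted pools, more cells that express a gene and more RNA per cell cannot be told apart.

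**Figure D3:**
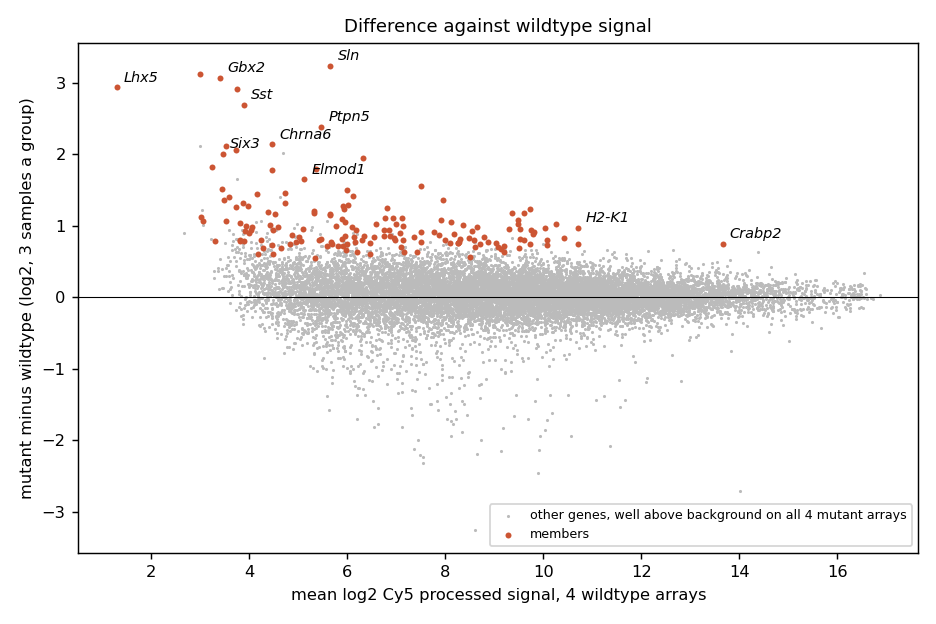
Mutant minus wildtype log2 ratio (3 samples per group) against the mean log2 Cy5 signal of the 4 wildtype arrays, for genes well above background on all 4 mutant arrays, with the 160 members in orange. The largest differences belong to genes at the dim end, and among bright genes few pass the rule.

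Both dyes were examined because a ratio also rises when the reference falls. Over the members the median difference was 0.98 in Cy5 and 0.07 in Cy3, against 0.20 and 0.17 over all detected genes. Cy5 was higher in the mutant for 155 members. For 18 members a lower Cy3 signal made up over 50% of the difference, among them Kif9, Tbx21, Lgals7, Gpx2, Bmp8a, Cabp1 and Slitrk5. For Olfr1467, 4930449E01Rik, Pgpep1l, Fam71f2 and Eml5 the Cy5 signal was not higher at all. In Cy5 signal alone, 108 members had every mutant array above every wildtype array, and 148 did when the wildtype 2 array was left out. Cy5 is part of the ratio that chose the members, so these counts were largely fixed by the rule. No share over all detected genes was counted beside them.

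**Figure D4:**
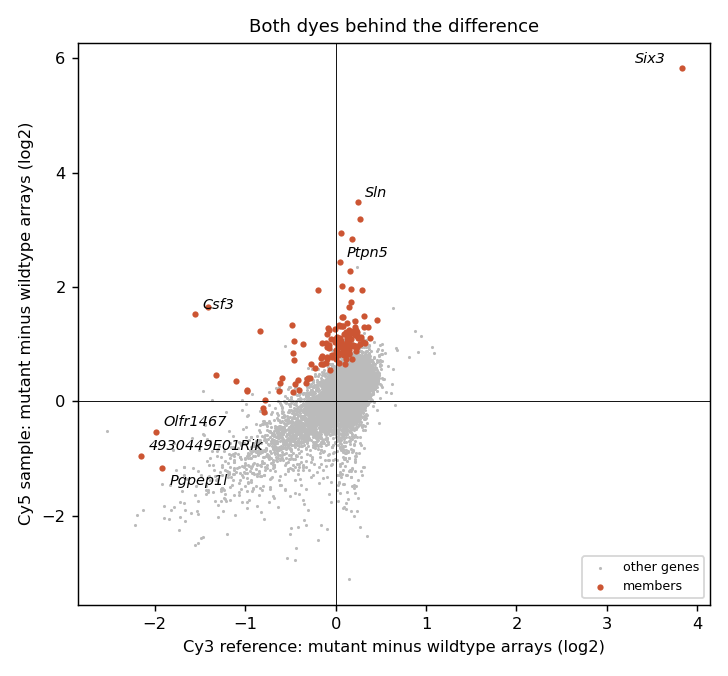
Mutant minus wildtype difference of the Cy5 sample signal against that of the Cy3 reference signal, in log2 of processed intensity (3 samples per group), for the 160 members (orange) and other detected genes (grey). Most members lie near 0 in Cy3 and between 0.5 and 3.5 in Cy5, and a tail at negative Cy3 holds members whose ratio came mainly from the reference.

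The mutant arrays were not equal. Mutant 1 was the highest of the 4 for 104 members and mutant 2 the lowest for 87. Mutant 1 also stood apart over the whole array, as given above. The log2 offset of its spike-in controls was 0.54, against -0.21 to 0.11 on the other arrays. The part of this in the members' ratios was not tested. Median ratios of the members were 1.07 on mutant 1, 0.63 on mutant 2, 0.79 on mutant 3 and 0.80 on mutant 4, against -0.16 to -0.02 on the wildtype arrays. Median differences between same-numbered pools, whose direction the rule fixes, were 1.11, 0.79, 0.91 and 0.92. Nlgn3, Jakmip1 and Fst owed most to mutant 1, which exceeded the next array by 1.19, 1.11 and 1.03. Zmat4 and Meioc were led by mutant 2, by 1.04 and 1.01. Without the mutant 1 array 175 genes met the rule, 128 of them members, and without mutant 2, 305 genes did, 156 of them members.

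Second probes gave values the rule did not use, from the same hybridisations. Of 58 other probes for 44 members, 49 were higher and 9 lower in the mutant, with a median of 0.59, and 15 met the full rule. The lower ones included probes of Dach2 and Prom2. The probes were not filtered on signal, and 27 were well above background on all mutant arrays. Over all genes, 1.14% of those well above background on the mutant arrays met the full rule, and 9.1% had all 4 mutant arrays above all 4 wildtype arrays, whatever the size. A second processing of the median spot signals (background correction with an offset of 50, then loess within each array) gave all 160 members a higher mutant mean, with a median difference of 0.65 in place of 0.92. It used the same spots as the rule, so this direction was largely fixed in advance. With its ratios 74 genes met the rule, 72 of them members. In that processing Gbx2 went from 8.40-fold to 1.67-fold and Sst from 6.47-fold to 2.64-fold, and the log2 difference of Sln went from 3.24 to 2.61. Which of its steps moved these values was not tested. In that processing limma called 5 genes higher (0.0221% of 22659 at an adjusted p of 0.05), of which Sln, Ptpn5, Chrna6 and Six3 are members. With pool number as a block it called 8 (0.0353%), of which Sln, Ptpn5, Chrna6, Elmod1, Sfmbt2 and Aldh1a3 are members. The rule rests on the same contrast, so nothing further is read from these counts.

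Lists of tissue and pathway genes placed the members against other genes of each kind, beside 1.10% members and a median difference of 0.03 over all 14544 measured genes. A gene counted as measured here if it was well above background on all 4 arrays of a group. A dim gene such as Meioc could thus enter through the mutant arrays alone, which is also a condition of the rule. The member shares of dim lists may be raised by this. Of 42 measured neuron genes, 5 were members (11.9%), namely Mapk8ip2, Stmn2, Celf4, Unc13c and Crmp1. 31 of the 42 were higher in the mutant (73.8%, against 55.8% of all measured genes), with a median of 0.22, and Nefl met the mirror rule. Lists with no member were shifted as much, with medians of 0.22 for endothelium (19 of 24 higher), 0.22 for stroma (21 of 27) and 0.33 for interferon response (20 of 25). Of 11 measured germ line and testis genes 2 were members, and of 23 neurotransmitter receptor subunits 2 were members and 2 were mirror genes. Muscle genes went both ways, with Sln and Myh7 among the members, Myog, Tnnt2 and Tnnc1 under the mirror rule, and a median of -0.05 over 27 genes. Of the 33 nephron progenitor genes 1 was a member, Fgf20, and 7 met the mirror rule, among them Cited1. Of 38 genes of the renal vesicle and nephron segments 1 was a member, Calb1, and 6 met the mirror rule. Ret and Calb1 were members of the ureteric bud list (27 measured).

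No listed and measured gene of smooth muscle (15), neural crest and glia (12), interstitial stroma (27) or endothelium (24) was a member. The same held for the lists of macrophages and leukocytes (21), red cells and platelets (17), liver (8) and steroid-producing tissue (9). It held as well for the listed imprinted genes (39), p53 targets (31) and immediate early genes (19). These counts cover the listed genes only, and most members, Sfmbt2 and the class I genes included, were on no list. Summed Cy5 levels of other cell types were nonetheless not identical. The red cell and platelet list summed to 17.8 to 18.0 on wildtype and 18.2 to 18.6 on mutant arrays, without overlap, on the log2 scale. The neuron list summed to 14.7 to 15.2 and 15.1 to 15.6, and the ureteric bud list to 15.7 to 15.8 and 15.8 to 16.6. The stroma list summed to 17.3 to 17.5 and 17.5 to 18.1, and the neural crest and glia list to 11.5 to 12.1 and 11.8 to 12.2. Levels were higher in Cy5 over all detected genes too, as given above, and the part of other cells in the members' values was not tested.

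**Figure D5:**
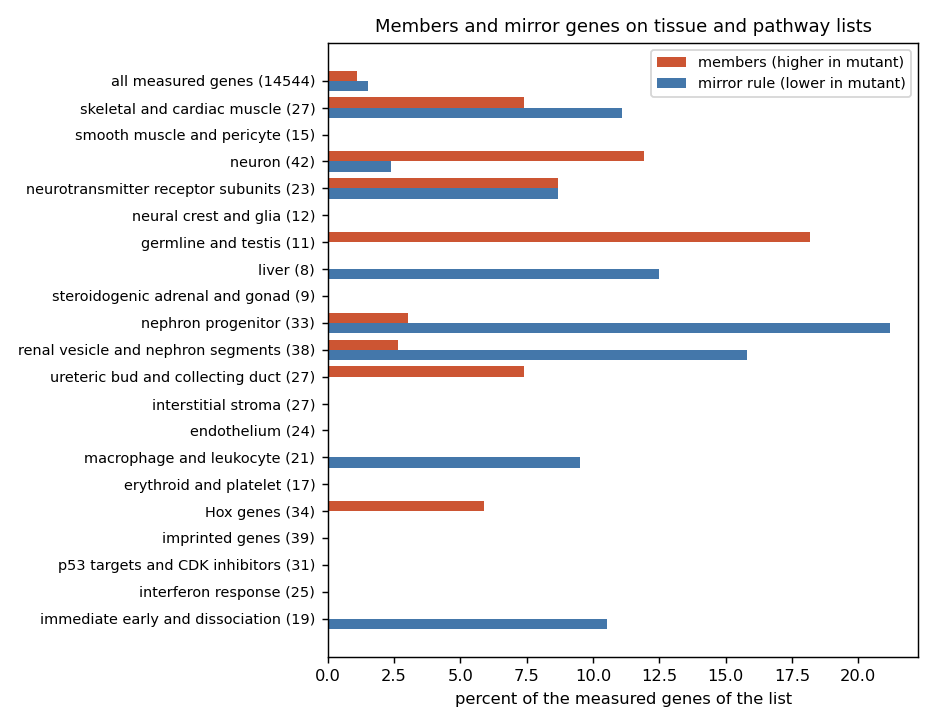
Percent of the measured genes of each list (number in parentheses) that were members (orange) or met the mirror rule (blue), with all measured genes on top. Neuron and germ line lists have more members than mirror genes, and progenitor and nephron segment lists have more mirror genes.

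At the edge of the rule the choice was narrow. The members just inside the threshold were Eml5, Lpcat2 and Tenm2, with log10 differences of 0.201, 0.2009 and 0.2001. Just outside it were the potassium channel subunit Kcnab3 at 0.1989, the odorant receptor Olfr1443 at 0.1984 and the Notch ligand Jag2 at 0.1983, all 3 with mutant arrays above wildtype arrays. The 5 largest falls by the mirror rule, ranked by the log10 difference of the 4 array means, were those of Lamp5, Slc22a19, R3hdml, Cidea and Sult1d1. Lamp5, Slc22a19 and Cidea were not well above background on any mutant array, so their size is not given. R3hdml was measured on all 8 arrays and differed by -3.25, and Sult1d1, well above background on 3 mutant arrays, by -3.48.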

How the data were processed

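The authors' deposited scanner files hold, per the file headers, for each spot the log10 ratio of Cy5 over Cy3 and the processed and median intensity in both dyes from Agilent Feature Extraction 10.7.3.1, with background subtracted and dyes normalized in the processed values. RNA input was 0.5 µg per labelling, per the labels. The deposited value table holds the same log10 ratios, with columns that matched them to within 0.005, a median of 0 on 7 arrays and of 0.00483 on the wildtype 2 array. The members and gene lists were chosen with earlier results of these data known.

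Spots of one probe were averaged over non-control spots, and log10 ratios were multiplied to give log2 values. Probe accessions, stripped of versions, were matched to RefSeq (GRCm38.p6), which named 27509 of 55681 probes with 20887 symbols. The probe with the highest mean log2 Cy5 signal stood for a gene, and the rule was then applied. Cy3 levels of the one reference RNA differed between arrays by a median absolute deviation of 0.0457 to 0.0785 (21 pairs without wildtype 2). Cy5 levels of pools 3 and 4 differed by 0.0567 in wildtype and 0.0602 in mutant cells, and those of other pairs by 0.11 to 0.399. Same-numbered samples deviated together (r = 0.495, 0.543 and 0.527 over 22325 genes, other pairs -0.454 to -0.0777). Pool number was therefore used as a block in an alternative fit, on the evidence of the data and of no label. The rule, the group means and the main limma fit did not use the pairs.

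The second processing used limma 3.58.1 in R 4.3.3 (normexp with offset 50 on median signals, loess, probes well above background on at least 3 arrays of a group, Benjamini-Hochberg threshold 0.05). It was tested on simulated data, as was the rule. With 3 samples per group the smallest two-sided exact permutation p is 0.1. Named genes are the 4 markers of the group, the 25 members with the largest difference, the 3 largest of each list, 3 genes on each side of the threshold, the 5 largest falls, and Hdac1, Hdac2 and Six2. Some genes that the rule names are not reported here. Further members illustrate each role and were chosen after their values were seen. Alternatives are given in the closing section. The number of arrays limits the precision.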

Additional observations from a re-analysis of the deposited data

How the results depend on the processing

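The rule found 160 genes, against 74 with normexp and loess ratios, 80 with arrays centred on spike-ins, 312 at a threshold of 0.15 and 63 at 0.3. Leaving out 1 array gave 173 to 305 genes, with 113 members met under each such setting, and leaving out pool 2 of both groups, chosen after seeing the data, gave 274. Centring on the spike-ins lowered every difference by 0.21 on the log2 scale, less than the smallest difference of a member. Asking, as a replicate block and after seeing the data, for a higher mutant value in each of the 4 pairs of pools gave 206 genes, which hold the 160 by construction. The other alternatives for this count gave 139 to 195 genes. Taking any probe that met the rule, also chosen after seeing the data, added 16 genes.

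The limma count of 10 genes became 34 with the replicate block, 257 with 8 arrays as separate samples and 5 with trended and robust variance, 4 without wildtype 1 or wildtype 2, 6 without mutant 1, 7 to 10 without 1 of the other arrays, 1 without wildtype pools 3 and 4 and 3 without mutant pools 3 and 4. Between-array Aquantile scaling leaves ratios as they are. Of 650 values for 50 named genes under 13 alternatives, 576 moved by less than the spread between replicates, and 74 moved by more. The Aquantile values repeat those of the normexp and loess ratios, so that processing is counted again among the 13. All values that moved by more came from that processing or from centring on the spike-ins. With normexp and loess ratios most named genes moved by more, Sln, Ptpn5, Chrna6 and Elmod1 included, while Nrsn1, Six3 and Fst were among those that did not. Signs could hardly change, since most of the 50 named genes were chosen for groups that do not overlap. Probes near background limit Lhx5, Gbx2, Csf3 and the other members seen on fewer than 4 wildtype arrays.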
